A study of Mus musculus with 3 samples.

Results

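Collagens are secreted or membrane-anchored proteins in which 3 chains wind into a triple helix, and each chain is encoded by its own gene. The helical part repeats triplets of residues that each begin with glycine, the only residue small enough for the centre of the helix. Fibrillar collagens make the fibrils of bone, dentin, cartilage and connective tissue. Network collagens form the sheets of basement membranes and related meshworks, FACIT collagens sit on the surface of fibrils, beaded filament collagens (type VI) run between cells and fibrils, and transmembrane collagens stay in the plasma membrane. The enamel organ is the epithelium whose ameloblasts form enamel. Dentin is rich in type I collagen made by odontoblasts.

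The members were all rows of the count table whose symbol is Col, a number, a and a number. There were 44 such genes among 20937 rows. All 44 passed the filter on low counts, and 42 had a mean of at least 50 counts over the 3 libraries. The remaining pair, Col4a3 and Col6a4, had 17 to 69 counts in each library.

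Each of the 3 libraries came from incisor enamel organs, dissected whole at an age of 4 weeks, and each genotype had 1 library. Triplets of values below are in the order Stim1 cKO, Stim1 HT, Stim1 Ctrl. Stim1 cKO was Stim1 fl/fl Cre+, Stim1 HT was Stim1 fl/wt Cre+ and Stim1 Ctrl was Stim1 fl/fl Cre-, and the study took Stim1 HT and Stim1 Ctrl as its controls. Cre was driven by an amelogenin promoter (AmelX-iCre), active in ameloblasts from the secretory stage on. The comparison asks which genes differ when Stim1, the calcium sensor of the endoplasmic reticulum, is deleted from ameloblasts. Since no genotype had a replicate, the p-values below rest on the difference between the 2 control libraries, which are of different genotypes, and whether a mouse was pooled with others is not given in the sources used here.

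Stim1 was at 72.8, 129 and 186 CPM (counts scaled by the TMM library size), an order that follows the labels, with an edgeR adjusted p of 0.106. Library totals were 20216507 to 28265960 counts, and 3 counts correspond to 0.117 to 0.152 CPM. The Stim1 cKO library stood apart in its cell markers. Of 10 retina and lens markers 5 were listed, and all 5 lay over 2-fold above both controls, with a summed level of 985 CPM against 4.87 and 4.47 in the controls. Skeletal muscle markers summed to 3827, 19660 and 22398 CPM, and 7 of 8 lay over 2-fold below both controls. Ameloblast markers were present in all libraries, with sums of 4457, 31544 and 23273 CPM, a median log2 fold change of -0.39, and values of both signs. Of these 7 genes Amelx, Ambn and Enam, which encode the main enamel matrix proteins, lay over 2-fold below both controls and Odam, a gene of maturation-stage ameloblasts, over 2-fold above (2.35), while Mmp20 (-0.39), Klk4 (0.44) and Amtn (0.46) lay within. With a single Stim1 cKO library, results with and without it cannot be given, and in bulk RNA fewer cells of a type and less RNA per cell cannot be told apart.

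The repeat that defines a collagen was visible in the coding sequence of the members, which is shown here because the fibrillar class is defined by long unbroken runs of it. In fibrillar collagen genes much of the helix is spelled by exons of 54 bases, each holding 6 triplets that begin with a glycine codon. For 6 fibrillar members, the middle one of the exons of this form is given 5′ to 3′ on the gene's strand, from GRCm38 with the GENCODE M21 annotation, with the glycine codons in capitals. All 6 are coding exons without UTR.
Col1a1 exon 26 (chr11:94944355-94944408, plus strand): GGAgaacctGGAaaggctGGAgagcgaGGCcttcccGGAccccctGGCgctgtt
Col1a2 exon 27 (chr6:4524117-4524170, plus strand): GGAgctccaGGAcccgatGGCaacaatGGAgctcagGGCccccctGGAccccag
Col2a1 exon 29 (chr15:97985863-97985916, minus strand): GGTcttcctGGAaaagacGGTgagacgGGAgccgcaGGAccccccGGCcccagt
Col3a1 exon 26 (chr1:45334761-45334814, plus strand): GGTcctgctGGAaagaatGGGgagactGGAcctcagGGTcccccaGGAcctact
Col5a1 exon 37 (chr2:27998726-27998779, plus strand): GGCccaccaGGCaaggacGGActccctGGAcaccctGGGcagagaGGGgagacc
Col27a1 exon 28 (chr4:63297811-63297864, plus strand): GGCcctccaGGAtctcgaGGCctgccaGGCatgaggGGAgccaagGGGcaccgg

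Outside the fibrillar class the run of glycine triplets breaks off often. The spliced coding sequence at the end of the longest run of Col4a1, a network collagen, and Col17a1, a transmembrane collagen, shows this, with the glycine codons of the last 3 triplets of the run in capitals and the following 27 bases in lower case. Both stretches cross an exon boundary, so that the coordinates span an intron.
Col4a1 (chr8:11244525-11245066, minus strand): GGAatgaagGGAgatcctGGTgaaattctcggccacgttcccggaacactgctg
Col17a1 (chr19:47657149-47659225, minus strand): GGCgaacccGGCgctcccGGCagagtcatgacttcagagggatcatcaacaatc

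The longest uninterrupted run was 216 to 344 triplets in the 11 fibrillar members (median 338), with the low end held by Col24a1 (216) and Col27a1 (217). It was 32 to 113 in the FACIT members, 39 to 66 in the network members, 37 to 87 in the beaded filament members and 40 to 56 in the transmembrane members. The ranges of these 4 classes overlapped. Exons of 54 bases made up 48.6% of the wholly coding exons of fibrillar members (305 of 627), 26.3% in FACIT members and 4.23% in network members, although single FACIT genes such as Col22a1 (45.9%) were above Col1a1 (42.9%). Col27a1, 1 of the pair with the shorter runs, was also the fibrillar member that went the other way from the rest in the Stim1 cKO library. Col24a1, the other of that pair, was lower like the rest (log2 fold change -1.28).

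Most collagen genes were lower in Stim1 cKO than in both controls. Summed over the members, collagen took 4.22% of the Stim1 cKO counts (95% Wilson interval 4.21 to 4.23), 5.49% of those of Stim1 HT (5.48 to 5.50) and 8.16% of those of Stim1 Ctrl (8.15 to 8.17), with intervals for counting error only. The 3 most abundant genes, Col1a1, Col1a2 and Col3a1, carried most of that share. Without them it took 0.410%, 0.970% and 1.51%. Col1a1 and Col1a2 together were 83.3% of collagen counts in Stim1 cKO against 70.8% and 69.6% in the controls, and Col3a1 was 7.03% against 11.5% and 11.9%.

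**Figure D1:**
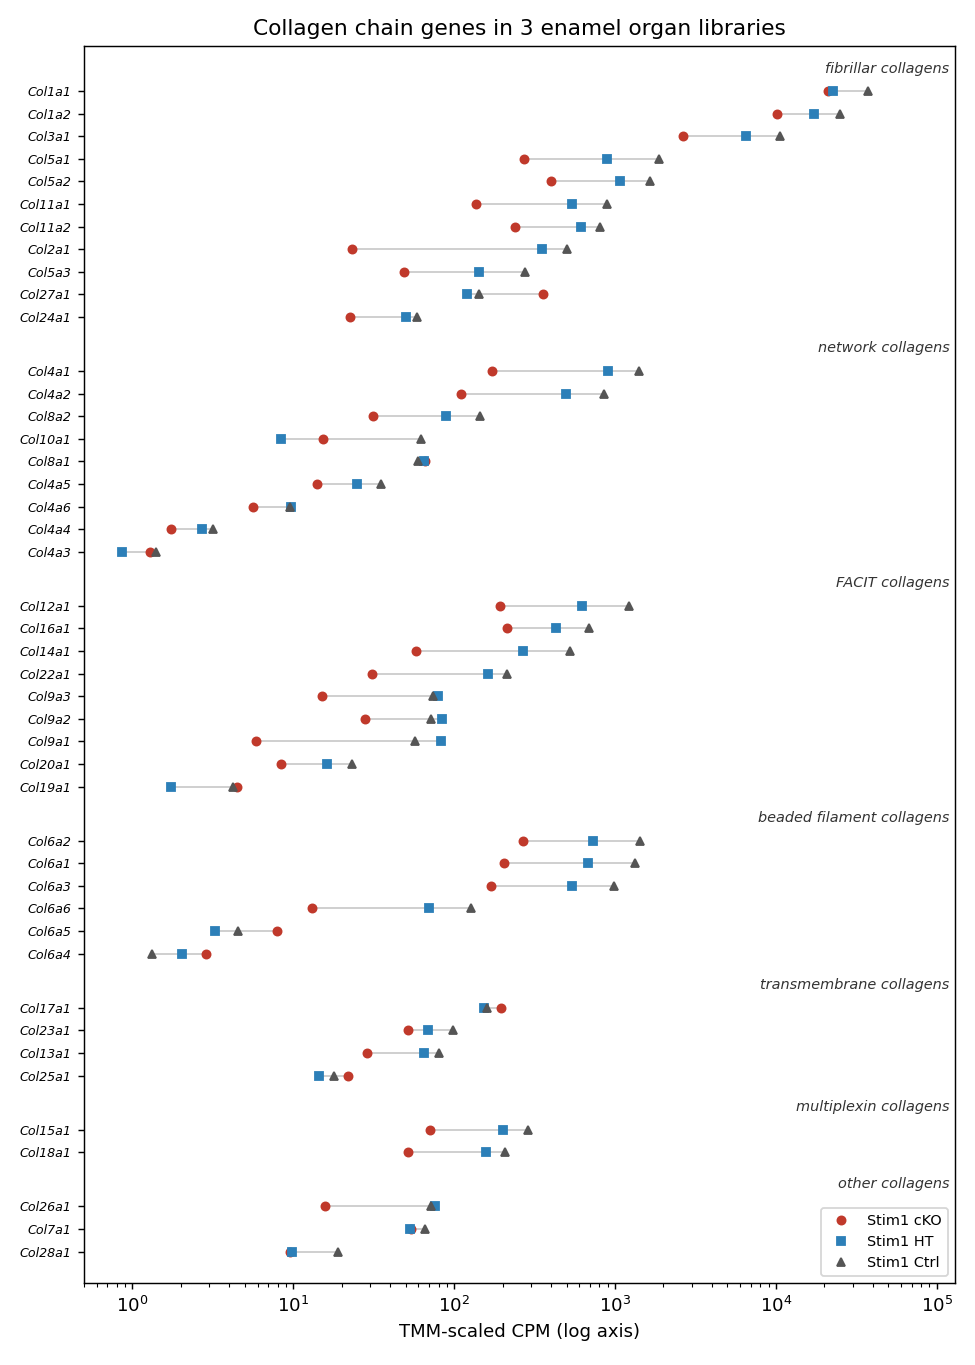
Level of each of the 44 collagen chain genes in the 3 libraries, as TMM-scaled CPM on a log axis, grouped by class and ordered by the level in Stim1 Ctrl. Each symbol is 1 library, and for 25 of the 42 genes that average 50 counts or more the Stim1 cKO symbol lies over 2-fold to the left of both controls.

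By size alone, 25 of the 42 members with a mean of at least 50 counts (59.5%) lay over 2-fold below both controls, where 8.36% of all such genes did. One member, Col27a1, lay over 2-fold above both (2.38%), where 14.3% of all such genes did. The nearest member outside the lower limit was Col16a1, at 1.997-fold, and the nearest inside was Col24a1, at 2.23-fold. The median log2 fold change of the 44 members was -1.52, against -0.01 over the 18702 genes tested, whose interquartile range was -0.55 to 0.88. The direction was negative in 36 members and positive in 8.

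No member passed the main test, edgeR's quasi-likelihood test at an adjusted p under 0.01 and a fold change over 2. That test called 0% of all genes lower and 0.0749% higher, 14 genes in all, none of them a collagen. At an unadjusted p under 0.05 it gave 28 members lower and 1 higher, against 13.4% and 18.5% of all genes, and at an adjusted p under 0.05 with a fold over 2 it gave 15 lower (34.1%) and 1 higher (2.27%), against 2.88% and 6.8% of all genes. DESeq2, at an adjusted p under 0.01 and the same fold, called 26 members lower (59.1%) and 1 higher (2.27%), where it called 5.1% and 6.42% of all genes. With DESeq2 at an adjusted p under 0.05 the shares of all genes were 7.27% lower and 9.25% higher, beside 27 and 1 members, and edgeR without the filter on low counts called 1.05% of all genes lower and 3.28% higher, beside 6 and 0 members. The count of calls thus depended on the tool, and "lower" is used below for the values and not for an edgeR call.

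The controls also differed from each other in most members. Stim1 HT was below Stim1 Ctrl in 36 of 42 members (85.7%), against 52.5% of all genes, with a median log2 difference of -0.52 against -0.02 over all genes. The order Stim1 cKO lowest, Stim1 HT in the middle and Stim1 Ctrl highest was seen in 29 of 42 members (69%), against 29.2% of all genes. These shares use the same 3 libraries as the fold changes and add no replicate.

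**Figure D2:**
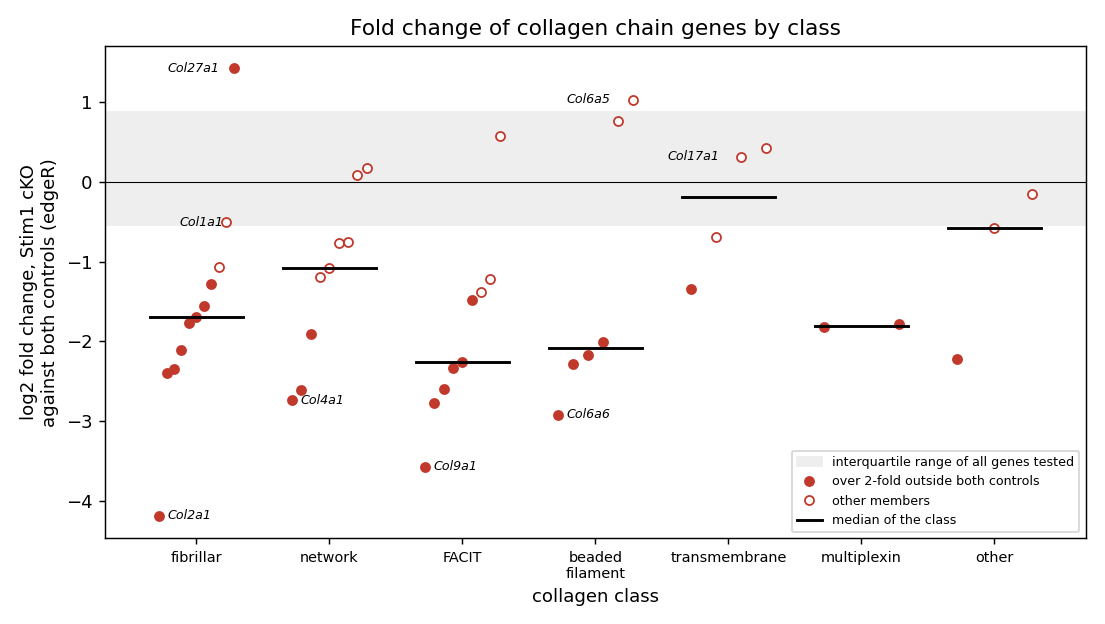
Log2 fold change of each collagen gene in Stim1 cKO against both controls (edgeR), by class. Filled points lie over 2-fold outside both controls, black lines are class medians, and the grey band is the interquartile range of all genes tested (-0.55 to 0.88). FACIT and beaded filament medians are lowest among the classes of 3 or more genes, and the transmembrane median lies inside the band.

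Of the 11 fibrillar members 8 lay over 2-fold below both controls and 1 above, with a median log2 fold change of -1.70. Type I collagen, the main protein of bone and dentin, was the most abundant. Per kilobase of exon, Col1a1 was at 5679 CPM in Stim1 Ctrl, Col1a2 at 2021 and Col3a1 at 1084. Col1a1 was at 21092, 22640 and 37268 CPM. The Stim1 cKO and Stim1 HT values lay close together, and the log2 fold change of -0.51 did not pass (adjusted p 0.595 in edgeR, 0.420 in DESeq2). Col1a2 was at 10126, 17292 and 25111 CPM, which is -1.07 on the log2 scale (adjusted p 0.255 in edgeR, 0.0186 in DESeq2).

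Col3a1, the fibrillar chain of soft connective tissue, was at 2636, 6473 and 10644 CPM (-1.70). Type V collagen is built into type I fibrils and limits their width. Its Col5a1 chain was at 272, 885 and 1880 CPM (log2 fold change -2.35) and its Col5a2 chain at 401, 1079 and 1650 CPM (-1.77). Col5a3, the third type V chain, was at 48.5, 142 and 277 CPM (-2.11). In all of these the Stim1 cKO value lay over 2-fold below both control values, as in 8.36% of the 14977 genes compared. Stim1 HT was itself lower than Stim1 Ctrl in each, by 1.09 on the log2 scale for Col5a1. That order, Stim1 cKO lowest and Stim1 Ctrl highest, was seen in 29.2% of the same genes.

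Col2a1, the fibrillar chain of cartilage, had the largest difference of any member. It had 565, 6937 and 12928 counts, or 23.3, 352 and 502 CPM. The Stim1 cKO level was 15.1-fold below the lower control. edgeR gave a log2 fold change of -4.19 (adjusted p 0.0173), and DESeq2 gave -4.20 with a standard error of 0.37 (adjusted p 1.18e-27). Type XI collagen, which seeds cartilage fibrils, followed with Col11a1 at 136, 544 and 887 CPM (-2.39) and Col11a2 at 240, 613 and 802 CPM (-1.56). Col24a1, a fibrillar chain described in bone, was at 22.4, 50.005 and 58.8 CPM (-1.28).

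Col27a1, a fibrillar chain of cartilage, was at 356 CPM in Stim1 cKO against 121 and 144 in the controls. It was the one member above both controls by over 2-fold. edgeR put it at 1.43 on the log2 scale (adjusted p 0.0455), and DESeq2 at 1.42 with a standard error of 0.32 (adjusted p 0.000211).

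The 9 network members fell into separate sets, with 3 over 2-fold below both controls and a class median of -1.08. Col4a1 and Col4a2 form the type IV trimer found in nearly all basement membranes. Col4a1 was at 173, 903 and 1407 CPM, -2.74 on the log2 scale (adjusted p 0.0357 in edgeR, 3.47e-11 in DESeq2). Col4a2 was at 110, 499 and 852 CPM (-2.61). The tissue-restricted type IV chains were far less abundant and had values nearer 0, with Col4a5 at 14.1, 24.8 and 34.9 CPM (-1.08), Col4a6 at 5.62, 9.65 and 9.52 CPM (-0.77), Col4a4 at 1.74, 2.69 and 3.15 CPM (-0.75) and Col4a3 at 1.28, 0.863 and 1.40 CPM (0.17). None of these 4 passed either test.

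Type VIII collagen forms short-chain networks and has a pair of chains, which differed. Col8a2 was at 31.1, 88.7 and 145 CPM (-1.91) while Col8a1 was at 66.3, 64.7 and 60.0 CPM (0.09). Col10a1, the chain of hypertrophic cartilage, was the member on which the controls disagreed most. It was at 15.4, 8.38 and 62.0 CPM, so that Stim1 cKO lay between the controls, and its log2 fold change of -1.20 becomes 0.88 without Stim1 Ctrl.

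FACIT members had a median of -2.27 and beaded filament members one of -2.09, an order that turned to -2.28 and -2.48 without Stim1 HT. Of the 9 FACIT members 6 lay over 2-fold below both controls. Type IX collagen coats cartilage fibrils. Col9a1 was at 5.87, 83.3 and 56.7 CPM, 9.67-fold below the lower control (log2 fold change -3.58, adjusted p 0.0176 in edgeR). Col9a3 was at 15.2, 79.8 and 73.8 CPM (-2.34) and Col9a2 at 28.01, 84.4 and 71.7 CPM (-1.48). In all 3 type IX chains Stim1 HT was the highest library, unlike in most members.

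Among the FACIT chains of type I fibrils, Col12a1 was at 192, 624 and 1223 CPM (-2.27) and Col14a1 at 58.2, 269 and 528 CPM (-2.78). Col22a1, a chain of the muscle-tendon junction, was at 30.9, 162 and 214 CPM (-2.60). All 8 skeletal muscle markers were also lower, 7 of them over 2-fold below both controls. The contribution of muscle RNA to Col22a1 was not tested. Col16a1 was at 214, 427 and 691 CPM (-1.39) and was called by DESeq2 although it missed the 2-fold rule. Col20a1 was at 8.43, 16.1 and 23.1 CPM (-1.22) and Col19a1 at 4.46, 1.73 and 4.24 CPM (0.58), and neither passed a test.

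Beaded filament members split by chain. Col6a1, Col6a2 and Col6a3 build the common type VI microfibril, and were at 205, 675 and 1329 CPM, at 269, 730 and 1432 CPM and at 170, 543 and 992 CPM, with log2 fold changes of -2.29, -2.00 and -2.17. Col6a6, an alternative to Col6a3, was at 13.0, 70.0 and 127 CPM (-2.92). The other alternative chains were scarce and had positive values, Col6a5 at 7.97, 3.25 and 4.55 CPM (1.03) and Col6a4 at 2.85, 2.03 and 1.32 CPM (0.77). Neither of these passed a test.

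The transmembrane members had the median nearest 0, at -0.19, and it turned to 0.07 when only library size was used for scaling. Col17a1, the epithelial chain of hemidesmosomes, was the most abundant per kilobase. It was at 196, 154 and 160 CPM, which is 0.32 on the log2 scale (adjusted p 0.454 in edgeR). Col13a1, which sits at cell contacts and neuromuscular junctions, was at 28.8, 65.1 and 80.5 CPM (-1.34) and was the one transmembrane member over 2-fold below both controls. Col23a1 was at 51.9, 68.8 and 99.1 CPM (-0.69) and Col25a1 at 21.8, 14.4 and 18.0 CPM (0.43).

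Both multiplexins, basement membrane collagens whose ends yield small fragments, were lower, Col15a1 at 70.8, 201 and 288 CPM (-1.79) and Col18a1 at 51.6, 157 and 208 CPM (-1.82). Of the members outside these classes, Col26a1 was at 15.8, 75.6 and 72.3 CPM (-2.22) and Col28a1 at 9.58, 9.85 and 18.8 CPM (-0.58). Col7a1, the anchoring fibril chain made by keratinocytes, was at 53.5, 53.2 and 66.1 CPM (-0.16), and its sign was positive at 0.11 with library size alone and at 0.01 without Stim1 Ctrl.

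**Figure D3:**
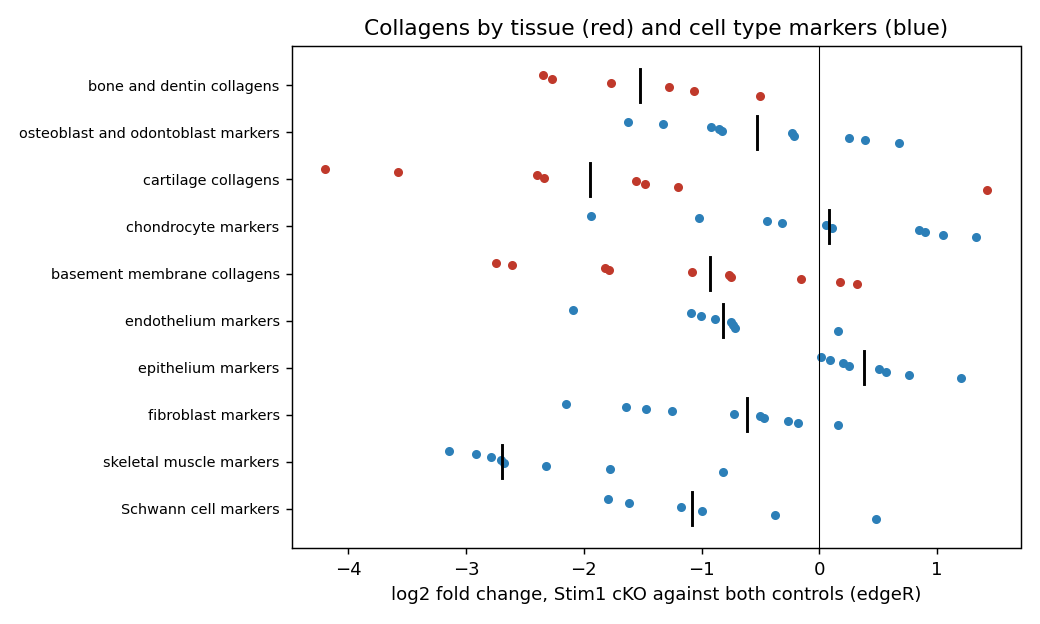
Log2 fold change of the collagen genes of 3 tissues (red) beside markers of cell types that hold no collagen gene (blue), with black lines at the medians. The cartilage collagens have a median of -1.95 and the chondrocyte markers 0.08, while skeletal muscle markers have -2.69.

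By tissue, all 6 bone and dentin collagens had negative values (median -1.52, 4 over 2-fold below both controls), as did 7 of 8 cartilage collagens (median -1.95, 6 below and Col27a1 above) and 8 of 10 basement membrane collagens (median -0.92, 4 below). The summed level of bone and dentin collagens was 32105, 42570 and 67190 CPM. Osteoblast and odontoblast markers, with no collagen among them, had a median of -0.53 and sums of 2850, 3225 and 3394 CPM. Only Dmp1 (-1.62) and Sp7 (-1.32) of those 10 lay over 2-fold below both controls, and Dspp, the odontoblast dentin matrix gene, was at 1264, 792 and 792 CPM.

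The cartilage collagens summed to 819, 1886 and 2599 CPM. Chondrocyte markers had values of both signs, with a median of 0.08 and sums of 228, 160 and 240 CPM. Of these 10 genes 4 were negative and 6 positive, and only 7 averaged 50 counts or more. Within that list Hapln1, a link protein of cartilage, was at 8.06, 19.0 and 42.6 CPM, while Sox9, the transcription factor of chondrocytes and several epithelia, was at 124, 51.6 and 47.0 CPM, over 2-fold above both controls. Acan, the main cartilage proteoglycan, was at 37.3, 49.2 and 102 CPM.

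Among the basement membrane collagens, many of which epithelial cells make, values ran from -2.74 (Col4a1) to 0.32 (Col17a1), with Col18a1 at -1.82, Col4a5 at -1.08, Col4a6 at -0.77 and Col7a1 at -0.16. The epithelial markers had a median of 0.38 with all 8 values positive. Their sums were 3708, 2456 and 2540 CPM. The share of all genes over 2-fold below both controls, 8.36%, stands beside the counts that follow. Endothelial markers had a median of -0.82 (sums 293, 587 and 584 CPM), fibroblast markers -0.62 (1345, 2093 and 2315 CPM, 4 of 10 over 2-fold below) and Schwann cell markers -1.08 (942, 1833 and 2569 CPM, 2 of 6 below). The part of these cell types in the collagen values was not tested.

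The balance between chains of one trimer was compared per kilobase of exon within each library, which leaves library scaling out. Col1a1 to Col1a2 was 3.94, 2.48 and 2.81. With the longest transcript as length these were 1.88, 1.18 and 1.34. The lengths are the same for every library, so their choice shifts the level of the ratio and cannot change the order. Col4a1 to Col4a2 stayed at 1.39, 1.61 and 1.47, Col6a1 to Col6a2 at 1.45, 1.76 and 1.76 and Col6a3 to Col6a1 at 0.303, 0.295 and 0.273. Col8a1 to Col8a2 was 1.22 in Stim1 cKO against 0.418 and 0.237, which is 2.92 and 5.16 times the controls. Col9a1 to Col9a2 was 0.128 against 0.603 and 0.483, and Col9a3 to Col9a2 was 0.435 against 0.759 and 0.826. Col11a1 to Col11a2 was 0.306 against 0.478 and 0.597, and Col5a1 to Col5a2 was 0.767 against 0.927 and 1.29. Col4a5 to Col4a6 was 2.98, 3.05 and 4.35, and Col4a3 to Col4a4 was 0.786, 0.342 and 0.473 on few counts.

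**Figure D4:**
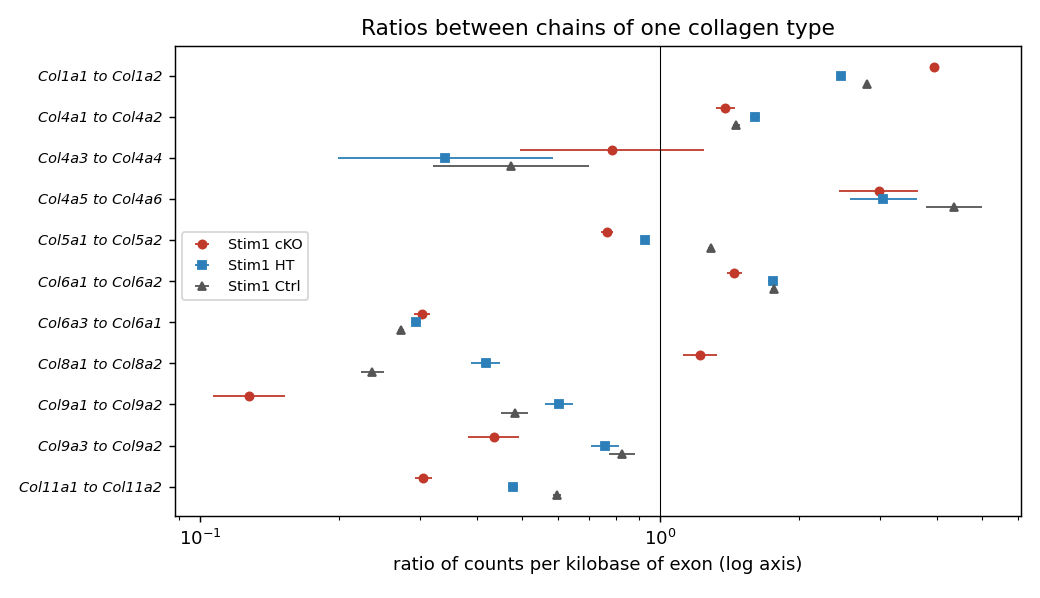
Ratio of counts per kilobase of exon between chains of one collagen type, by library, on a log axis. Bars are 95% intervals for counting error only, and the Col8a1 to Col8a2 and Col9a1 to Col9a2 ratios of Stim1 cKO lie farthest from those of both controls.

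Genes that process collagen were read out beside it. Of 23 genes of procollagen modification and folding, none was called by edgeR, 12 were called lower by DESeq2 and 11 lay over 2-fold below both controls (median -1.14). P3h1, a prolyl 3-hydroxylase, was at 37.3, 127 and 170 CPM (-1.99), Serpinh1, the collagen chaperone HSP47, at 368, 1345 and 1517 CPM (-1.96) and Fkbp10, a prolyl isomerase, at 89.2, 293 and 352 CPM (-1.85). Of 13 genes of processing and cross-linking, 3 lay over 2-fold below both controls (median -0.99), namely Loxl1 (-1.88), Lox (-1.56) and Pcolce (-1.38), and DESeq2 called 3. Among 10 collagen receptors 9 were tested and 8 averaged 50 counts or more. Mrc2, an endocytic receptor, was the only 1 of these 8 over 2-fold below both (-1.33), which does not set the receptors apart from all genes. Of 15 laminins and other basement membrane proteins 7 lay over 2-fold below both controls and DESeq2 called 7 lower, led by Nid1 (-2.30), Lamc1 (-2.23) and Nid2 (-2.06). No gene of these 4 lists was called higher by either tool.

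Pairs of neighbouring collagen genes on 1 chromosome gave mixed values. Col4a1 and Col4a2 lie head to head on chromosome 8 and were at -2.74 and -2.61. Col4a4 and Col4a3, head to head on chromosome 1, were at -0.75 and 0.17. Col4a6 and Col4a5, head to head on chromosome X, were at -0.77 and -1.08. Col6a2 and Col6a1 lie on the same strand of chromosome 10 and were at -2.00 and -2.29. Col3a1 and Col5a2 lie tail to tail on chromosome 1 and were at -1.70 and -1.77. In contrast, Col9a1 and Col19a1, also tail to tail on chromosome 1, were at -3.58 and 0.58, and the neighbours Col6a6, Col6a5 and Col6a4 on chromosome 9 were at -2.92, 1.03 and 0.77. Exons of Col4a1 and Col4a2 share up to 22 bases. The longest overlaps of Col5a1, Col9a3, Col10a1 and Col4a3 exons with an opposite-strand gene of the count table were 99, 234, 18 and 289 bases. Overlaps with genes outside the count table are left out. Whether the counting used strand is not given in the sources used here, so reads in these bases cannot be assigned with certainty.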

How the data were processed

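RNA from the incisor enamel organ was sequenced in 3 libraries. The authors trimmed reads, aligned them with STAR and deposited raw counts per gene symbol without normalization. The build, annotation, counting tool and strand setting are not given in the sources used here, and the paper and the labels name different library kits. The table lists only genes with at least 1 count in every library, and 25 rows (0.154% of counts) bear a date in place of a symbol.

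Stim1 cKO was compared with Stim1 HT and Stim1 Ctrl together using edgeR 4.0.16 (TMM, filterByExpr, quasi-likelihood test, Benjamini-Hochberg over 18702 genes) in R 4.3.3, at an adjusted p under 0.01 and a fold over 2. Residual degrees of freedom were 1 and the prior ones 4.15. DESeq2 1.42.0 was the alternative, with an adjusted p for 17251 genes. The 2-fold rule used TMM-scaled CPM of the 14977 genes averaging 50 counts or more, without a test. Exon lengths and positions were taken by symbol from GENCODE M21 (GRCm38), which held all 44 members. The fit was tested on simulated data of 1 against 2 libraries at the same thresholds. In those simulated data both tools missed most genes changed by 2 on the log2 scale and found most of those changed by 3 or 5. Every simulated gene had the same spread, and the simulated controls did not differ in their expected levels, unlike these data. The shares found there do not carry over: Col2a1, at -4.19 here, did not pass the edgeR test. A missing call therefore does not show that a gene was unchanged. Genes with values were named by rule: the most abundant of each class, those outside both controls, those called, and both chains of each ratio. Related genes were the up to 3 with the largest difference per list. The members and lists were chosen with earlier results of these data known. All other members are also given. The value of 1 marker gene is not reported here.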

Additional observations from a re-analysis of the deposited data

How the results depend on the processing

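The number of members called lower rose from 0 to 6 without the filter on low counts, to 15 at an adjusted p under 0.05, to 26 with DESeq2 and to 27 with DESeq2 at an adjusted p under 0.05, the last chosen after seeing the data. The shares of all genes called lower in these settings were 1.05%, 2.88%, 5.1% and 7.27%, against 0% before. The number called higher went from 0 to 1 in the last 3 of these. Members over 2-fold below both controls were 25 to 30 on leaving out either control and 23 with library size alone. At 1.5-fold there were 31 and at 3-fold 15. Those above were 1 to 3 on leaving out either control (3 without Stim1 Ctrl), 2 with library size alone, 2 at 1.5-fold and 0 at 3-fold. With library size alone, 5.44% of all genes lay below and 18.1% above. The shares of all genes at 1.5-fold, at 3-fold and without either control are not given, so those member counts cannot be set against them. The median fold change of all genes moved from -0.01 to 0.25 with library size alone and to 0.12 with upper-quartile factors, and that of the members to -1.26 and -1.39. Without Stim1 HT the members' median was -1.88, and without Stim1 Ctrl -1.33. The signs that reversed were Col7a1 (0.107 with library size, -0.304 to 0.0105 on leaving out either control), Col10a1 (-2.01 to 0.88) and Col4a3 (-0.13 to 0.57) on leaving out either control, and the transmembrane median (0.0746 with library size). The collagen shares were 4.45%, 5.64% and 8.39% in Stim1 cKO, Stim1 HT and Stim1 Ctrl without mitochondrially encoded genes, and 0.410%, 0.970% and 1.51% without Col1a1, Col1a2 and Col3a1. The median Stim1 HT to Stim1 Ctrl difference was -0.42 with library size and -0.55 with RLE factors. The causes of these shifts were not tested. The other 41 members kept their sign in all settings run. No paired analysis was possible because each genotype has 1 library. Depth limits Col4a3, Col4a4, Col6a4 and Col19a1, with at most 109 counts in any library.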

Other observations

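In the 250 bases before the RefSeq start site (GRCm38.p6, 35 of 44 members matched), the letters GGGCGG on either strand were found in 60.0% of members against 35.4% of 27025 genes. CCAAT was found in 37.1% against 37.5% and TATAAA in 14.3% of both, and none of these matches shows binding. Col1a1 and Col2a1 were among the members not matched. The 27025 genes were not limited to those of the count table and were not matched to the members in base composition.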
